A study of Canis lupus familiaris with 25 samples.

Results

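MYC (ENSCAFG00000001086) and CTNNB1 (ENSCAFG00000005204) were chosen by their Ensembl IDs as 2 of the 32220 genes counted in each of 25 canine prostate samples. From these same samples, the study had already listed both genes as raised with carcinoma, for either sample type, against non-malignant tissue. Their rise against that control was thus known beforehand, and finding it again here lends no separate support. Whole transcriptome RNA-Seq had been performed on snap frozen prostate tissue taken after euthanasia and on ultrasound-guided fine-needle aspirates (US-FNA). The labels give all aspirates as taken in life, but the study also aspirated the dog of US-3 a further time after euthanasia, and which of these aspirates US-3 is was not settled here. Prostate carcinoma was present in 9 tissues, named PT-1 to PT-9, and in 2 aspirates, US-3 and US-4, and the other 9 tissues, PT-10 to PT-18, and 5 aspirates were non-malignant. The diagnosis was made by histopathology in tissue and by cytology in aspirates. Of the 9 dogs with malignant tissue, 3 were intact (PT-1, PT-4, PT-8) and 6 were neutered, as were the dogs of US-3 and US-4. All 14 dogs with non-malignant samples were intact, so that neutering without a tumour was not sampled and diagnosis and neutering cannot be told apart in neutered dogs. The dogs were of various breeds, aged 8 to 12 years with malignant tissue, 1 to 16 years with non-malignant tissue, 9 and 10 years with malignant US-FNA and 4 to 10 years with non-malignant US-FNA. RNA of tissue and of aspirates was isolated with different kits, so that the kit and the sample type cannot be told apart. The study notes that the dog of US-3 also gave tissue without naming that sample. PT-6 carries the same breed, reproductive status and age labels as US-3. The study, however, lists 9 carcinoma tissues, 3 of intact and 6 of neutered dogs, under dogs counted apart from those aspirated in life. Whether PT-6 and US-3 come from 1 dog was not settled here, and every test treats the samples as independent.

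MYC encodes a transcription factor that drives cell growth, ribosome production and entry into the cell cycle, and it is often gained or overexpressed in human prostate cancer. CTNNB1 encodes β-catenin, which has a structural role at cell junctions, where it links cadherins to the actin cytoskeleton, and a signalling role in the Wnt pathway, where stabilised β-catenin enters the nucleus and activates target genes together with TCF/LEF factors. MYC is a textbook target of that pathway, and β-catenin is also known as a cofactor of the androgen receptor. These roles concern the proteins in large part, and the data below are transcript levels.

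Levels are given as CPM, the reads of a gene per 1000000 reads counted on genes, with the reads of KLK2 left out of the total. KLK2 encodes the main secretory kallikrein of the canine prostate and took 15.7% to 48.2% of the reads on genes in the non-malignant samples, and at most 0.0657% in the malignant samples. Without KLK2, between 2361751 and 5932319 reads per sample remained. MYC held 75 to 1577 reads and CTNNB1 465 to 15246 reads per sample, so that the counting error was at most 11.5% and 4.64% of the count, respectively. The summed level of the secretory luminal genes KLK4 and ACPP was 318 to 943 CPM in the 14 non-malignant samples and 1.76 to 25.7 CPM in the 11 malignant samples. Which cells carried the transcripts is not known, and in bulk samples more cells of a type and more RNA per cell cannot be told apart.

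Both genes were higher in malignant than in non-malignant prostate tissue, with mean CPM levels 3.02-fold higher for MYC and 5.68-fold higher for CTNNB1. The level of MYC was 158 ± 65.8 CPM in malignant tissue (mean ± SD, n = 9; lowest 89.4, median 128, highest 266) and 52.4 ± 19.99 CPM in non-malignant tissue (n = 9; lowest 21.2, median 48.6, highest 78.9). Every malignant tissue lay above every non-malignant tissue, a pattern found in 6.52% of the 15127 genes that passed the filter on low counts. The level of CTNNB1 was 1456 ± 757 CPM in malignant tissue (n = 9; lowest 412, median 1360, highest 2570) and 256 ± 94.8 CPM in non-malignant tissue (n = 9; lowest 132, median 233, highest 424). Here the groups overlapped by a single tumour, PT-1 of an intact dog at 412 CPM, which lay below the non-malignant PT-13 at 424 CPM. The other 8 tumours had 678 CPM or more.

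**Figure D1:**
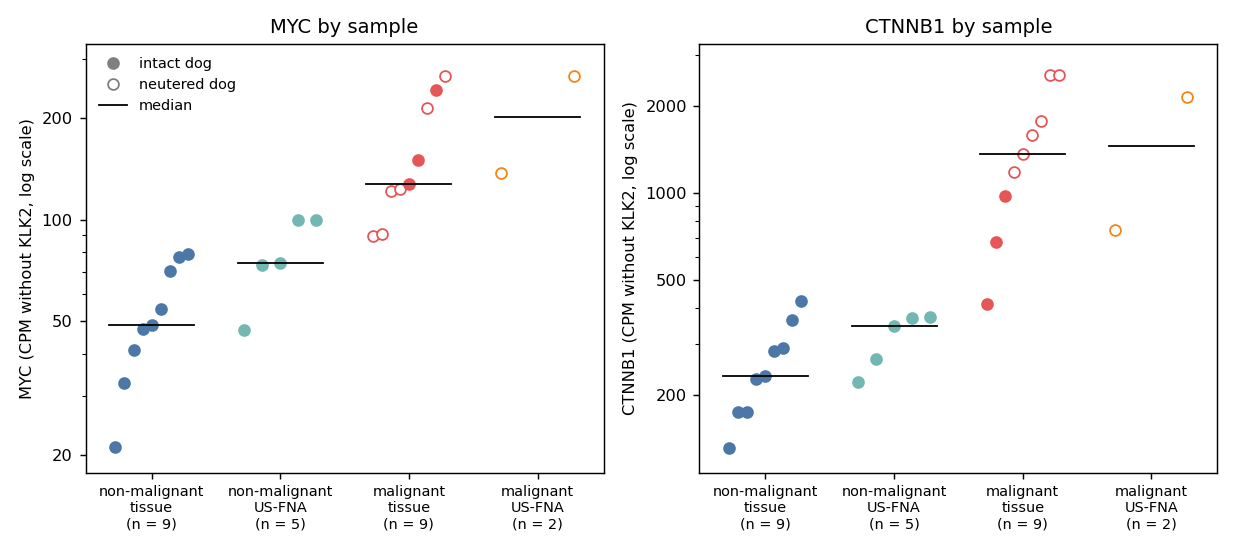
Level of MYC (left) and CTNNB1 (right) in each of 25 samples, as CPM without KLK2 on a log axis, by group, with filled points for intact dogs, open points for neutered dogs and a line at the group median. The 9 malignant tissues lie above the 9 non-malignant tissues for MYC, and for CTNNB1 the 3 intact dogs hold the lowest 3 places among the malignant tissues.

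In the edgeR quasi-likelihood test across all genes, the log2 fold change of malignant over non-malignant tissue was 1.53 ± 0.23 for MYC (SE; FDR = 1.81e-05) and 2.47 ± 0.32 for CTNNB1 (FDR = 4.23e-06). Both genes thus rose at an FDR under 0.05, as did 32.7% of the 15124 genes tested, so that this call alone does not set them apart. At the study's threshold, an FDR under 0.00001, 3.35% of the genes tested rose, among them CTNNB1, whereas MYC missed that threshold. CTNNB1 itself missed it in 10 of the 18 fits that left out 1 tissue, with a highest FDR of 1.68e-05. With DESeq2, the tool the study paired with this threshold, both genes passed it (FDR = 2.33e-10 for MYC and 7.27e-15 for CTNNB1). There, 11.0% of 18398 genes rose at that threshold. MYC also passed it with a single edgeR fit of all 4 groups (FDR = 6.42e-06), where 4.55% of genes rose. Within edgeR, the side of the strict threshold on which either gene lay thus depended on the model or on single samples. Of all genes tested, 33.2% had a larger absolute log2 fold change than MYC and 19.1% a larger one than CTNNB1, while the median log2 fold change over all genes was 0.16. Two-sided exact permutation tests of the mean log2(CPM + 1) gave p = 4.11e-05 for MYC, the smallest that 9 against 9 samples allow, and p = 8.23e-05 for CTNNB1. Without PT-1, the log2 fold changes were 1.47 and 2.60. With KLK2 kept and without the TMM scaling factors, the log2 fold changes were 2.16 and 3.06, the median over all genes moved from 0.16 to 0.84, and the share of genes that rose at an FDR under 0.05 was 51.7%.

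In the aspirates, too, both genes were higher in the malignant samples. In malignant US-FNA, MYC was at 138 CPM in US-3 and 266 CPM in US-4, and CTNNB1 at 745 CPM in US-3 and 2156 CPM in US-4. In non-malignant US-FNA, MYC was at 47.2 CPM in US-32, 73.3 CPM in US-7, 74.3 CPM in US-40 and 99.5 CPM in both US-13 and US-15. CTNNB1 was at 222 CPM in US-15, 267 CPM in US-32, 347 CPM in US-13, 370 CPM in US-7 and 372 CPM in US-40 of that group. Both malignant aspirates lay above all 5 non-malignant aspirates for both genes, as was the case for 15.6% of genes. US-4 lay near the highest malignant tissues in both genes, and US-3 lay near the median MYC level of the malignant tissues with CTNNB1 in the range of the intact dogs. For US-3, the study obtained no RNA integrity number and kept the sample for an acceptable electropherogram. The study scored blood contamination as strong in US-3, but also in the non-malignant US-15 and US-40. It was moderate in US-7 and US-32 and weak in US-4 and US-13. The part of RNA quality in these levels was not tested.

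The log2 fold change of malignant over non-malignant US-FNA was 1.55 ± 0.37 for MYC (edgeR, FDR = 0.0150) and 2.40 ± 0.41 for CTNNB1 (FDR = 0.00381), in a comparison in which 16.3% of genes rose. The exact permutation test, with its smaller tail doubled, could not go below p = 0.0952 with 2 against 5 samples. It gave that value for both genes. Without US-4, the log2 fold change of MYC was 1.02 and its FDR rose to 0.0845, so that this call rested on US-4. CTNNB1 kept its call without US-4 at a smaller log2 fold change of 1.47 (FDR = 0.0118). Set against the non-malignant tissue used above, malignant US-FNA differed by 2.14 ± 0.30 for MYC (FDR = 0.000114) and 2.67 ± 0.33 for CTNNB1 (FDR = 4.24e-05), and 24.3% of genes rose. Without US-4, the value of CTNNB1 in that comparison was 1.76 (FDR = 0.00212). Haemoglobin transcripts, a mark of blood in the aspirate, summed over 5 globin genes to 29753 and 39787 CPM in the malignant and 408 to 28282 CPM in the non-malignant aspirates, against at most 142 CPM in any tissue, and their part in these differences was not tested.

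Between sample types of the same diagnosis, neither gene passed the test. Non-malignant US-FNA exceeded non-malignant tissue by a log2 fold change of 0.56 ± 0.23 for MYC (edgeR, FDR = 0.0953) and 0.26 ± 0.20 for CTNNB1 (FDR = 0.391), while 18.3% of genes passed in either direction. The mean MYC level was 78.8 ± 21.8 CPM in the 5 aspirates and 52.4 ± 19.99 CPM in the 9 tissues, and US-13 and US-15 lay above all 9 tissues. They also lay above the tumour tissues PT-5 and PT-6, at 89.4 and 90.4 CPM. Over both sample types, therefore, 9 of 11 malignant samples lay above all 14 non-malignant samples for MYC, and 10 of 11 did for CTNNB1.

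Malignant US-FNA and malignant tissue differed by a log2 fold change of 0.62 ± 0.41 for MYC (edgeR, FDR = 0.501) and 0.23 ± 0.65 for CTNNB1 (FDR = 0.901), with 2.65% of genes called in either direction. The value of CTNNB1 was -0.01 without TMM factors, which moved the median over all genes from -0.09 to -0.35, and -0.64 without US-4, so that no direction can be given for it. The interaction of diagnosis and sample type, which asks whether the tumour difference was another in aspirates than in tissue, was 0.04 ± 0.46 for MYC (FDR = 0.987) and -0.04 ± 0.58 for CTNNB1 (FDR = 0.993) in a fit of all 25 samples, and 1.49% of genes were called. The MYC value changed sign without TMM factors and in 8 of 25 fits that left out 1 sample. The CTNNB1 value changed sign only in such leave-one-out fits, 7 of 25. The standard errors of both values leave room for differences in either direction. Both malignant aspirates came from neutered dogs, whereas the malignant tissues came from intact and neutered dogs. The mean CTNNB1 level was 1450 CPM in these aspirates, and 1839 CPM in neutered and 690 CPM in intact dogs with malignant tissue. Reproductive status is thus mixed with sample type in these contrasts, and its part was not tested.

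**Figure D2:**
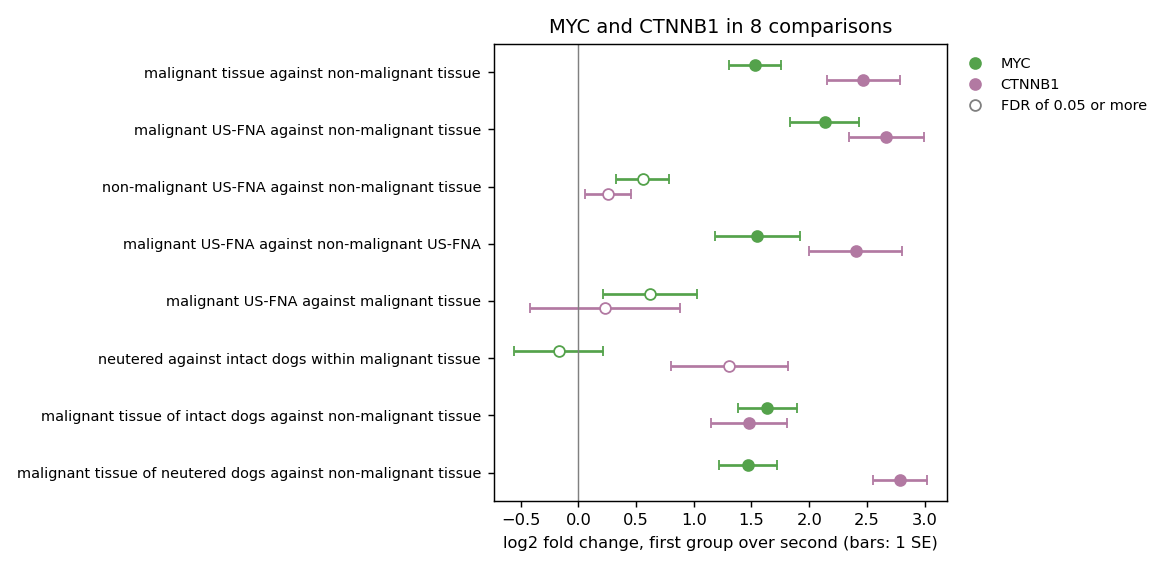
Log2 fold changes of MYC and CTNNB1 (edgeR, first group over second, bars of 1 SE) in 8 comparisons, with filled points for an FDR under 0.05 and open points otherwise. The 5 comparisons of malignant with non-malignant samples carry filled points for both genes, and the comparison of neutered with intact dogs sets the genes furthest apart, with -0.17 for MYC and 1.31 for CTNNB1.

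Among the malignant tissues, the 2 genes were ordered differently by the reproductive status of the dog. CTNNB1 was at 412 CPM in PT-1, 979 CPM in PT-4 and 678 CPM in PT-8, the intact dogs, with a mean of 690 ± 284 CPM (n = 3). In the 6 neutered dogs it was at 1179 CPM or more (lowest 1179, median 1682, highest 2570; mean 1839 ± 598 CPM). Every neutered dog thus lay above every intact dog, as was the case for 0.807% of genes. In either direction, 1.48% of genes set the groups apart. Random labels would do so with a probability of 0.0238, so the rarity of this order does not mark out CTNNB1. MYC was at 242 CPM in PT-1, 128 CPM in PT-4 and 150 CPM in PT-8, and at 89.4 to 266 CPM in the neutered dogs (median 123), so that its ranges overlapped, with 4 of 6 neutered dogs below all intact dogs and 1 above them.

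In the edgeR fit, the log2 fold change of neutered over intact dogs was 1.31 ± 0.51 for CTNNB1 (unadjusted p = 0.0268, FDR = 0.913) and -0.17 ± 0.38 for MYC (FDR = 0.988). No gene passed an FDR under 0.05 in this comparison (0% of 15073), and 793 genes (5.26%) had an unadjusted p under 0.05. DESeq2 called 19 genes and the single fit of all samples 13, CTNNB1 not among them with either tool (FDR = 0.356 and 0.235). The exact permutation test of CTNNB1 gave p = 0.0238, the smallest that its doubled tail allows for 6 against 3 dogs. After adjustment over the 16 tests of that kind it was 0.0544. Of all genes, 12.6% had a larger absolute log2 fold change than CTNNB1 and 74.6% a larger one than MYC. The aspirate US-3, which had no RNA integrity number, came from a neutered dog but had 745 CPM of CTNNB1, between the intact dogs PT-8 and PT-4. With both malignant aspirates counted among the neutered dogs, the mean difference of log2(CPM + 1) was 1.32 (n = 8 against 3, exact permutation test, p = 0.0242), and it was also 1.32 with PT-6 left out (n = 7 against 3, exact permutation test, p = 0.0333). The intact dogs were 8 or 9 years old and the neutered dogs 8 to 12 years, and the part of age in the difference was not tested.

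Compared with the same 9 non-malignant tissues, tumours of intact and of neutered dogs both had more of either transcript. In intact dogs, the log2 fold change was 1.64 ± 0.25 for MYC (edgeR, FDR = 0.000456) and 1.48 ± 0.33 for CTNNB1 (FDR = 0.00387), in a comparison in which 22.2% of genes rose. All 3 intact tumours lay above all controls for MYC, as did 9.70% of genes, and 2 of the 3 did for CTNNB1. Without PT-4, the CTNNB1 value in intact dogs fell to 0.89 (FDR = 0.0398). In neutered dogs, the log2 fold change was 1.47 ± 0.25 for MYC (FDR = 0.000126) and 2.79 ± 0.23 for CTNNB1 (FDR = 1.47e-07), and 31.6% of genes rose. There, all 6 tumours lay above all controls for both genes, as was the case for 11.6% of genes, and CTNNB1 also passed the study's threshold with 4.04% of genes. These comparisons share their controls, and the direct test of the difference between them is the comparison of neutered with intact dogs above.

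The number of CTNNB1 reads per MYC read compares the members within a sample and needs no scaling between samples. Since it depends on the lengths of both transcripts, only its change between samples can be read. It was 5.14 ± 1.54 in non-malignant tissue (n = 9; lowest 3.61, median 4.60, highest 7.82) and 10.2 ± 4.94 in malignant tissue (n = 9; lowest 1.70, median 11.2, highest 17.5). In the 6 neutered dogs it was 9.67 or more (median 12.6, highest 17.5), above all 9 non-malignant tissues, whereas the intact dogs had 1.70 in PT-1, 7.67 in PT-4 and 4.52 in PT-8. The ratio was 8.11 in US-4 and 5.41 in US-3, below every neutered dog with tissue, and 2.23 to 5.66 in the 5 non-malignant US-FNA.

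**Figure D3:**
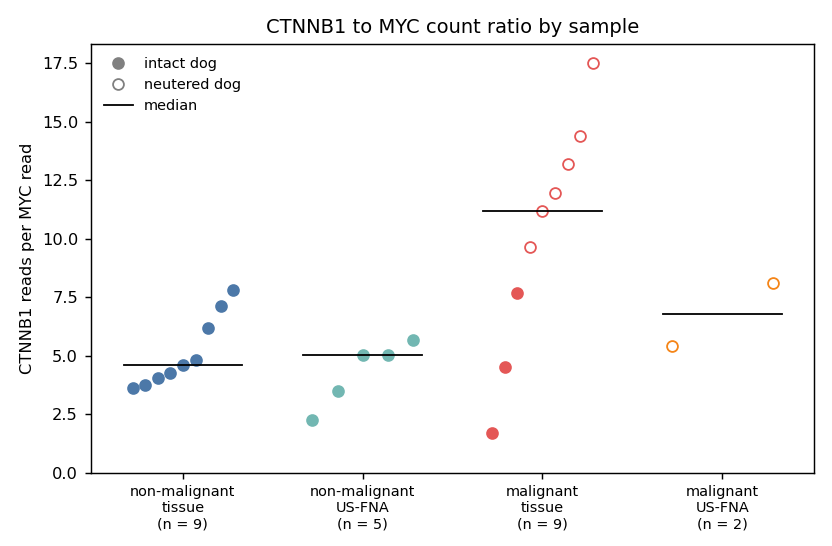
CTNNB1 reads per MYC read in each of 25 samples, on a linear axis from 0, with filled points for intact dogs, open points for neutered dogs and a line at the group median. The 6 neutered dogs with malignant tissue have ratios of 9.67 to 17.5, and every other sample lies at 8.11 or less.

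On the log2 scale, the ratio of neutered tumours exceeded that of non-malignant tissue by 1.37. The exact permutation p-value, two-sided, was 0.000400, the smallest that this test allows for these group sizes, and 0.00320 after adjustment over the 8 comparisons of the ratio. The ratio of intact tumours differed from non-malignant tissue by -0.34 (exact permutation, p = 0.418, adjusted 0.478). This value turned to 0.25 without PT-1, so that no direction can be given for intact dogs. The difference between neutered and intact tumours was 1.71 (exact permutation, p = 0.0238, the smallest possible, adjusted 0.0952). For all malignant against all non-malignant tissues the difference was 0.80 (exact permutation, p = 0.0486, adjusted 0.130), and the ratio of 6 of 9 tumours lay above all controls and that of 1, PT-1, below them. Without PT-1, this difference was 1.09 (exact permutation, p = 0.00148), a value obtained by leaving out the sample that went against it. Over all 18 fits that left out 1 tissue, the difference ranged from 0.67 to 1.09, and 14 of them had an exact permutation p above 0.05. The other 4 comparisons, all with aspirates, had adjusted p-values of 0.349 or more.

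No relation of MYC with CTNNB1 was detectable over the 9 malignant tissues. Pearson's r of log2(CPM + 1) was 0.00 (exact permutation, p = 0.999) and Spearman's rho 0.10 (exact permutation, p = 0.810). Since the intact and neutered dogs stood apart in CTNNB1, the relation was also computed in the 6 neutered dogs, where r was 0.91 (exact permutation, p = 0.0181, 0.0903 after adjustment over the 10 relations computed) and rho 0.94 (exact permutation, p = 0.0167, adjusted 0.0861). That relation rested on PT-2 and PT-7, which were high in both genes, because r was 0.46 in the other 4 dogs. The 3 intact dogs are too few for a correlation, and among them the order of CTNNB1 was the reverse of that of MYC. The pooled value depended on single samples. Without PT-1, r over the other 8 tissues was 0.51 (exact permutation, p = 0.197), but leaving out another tissue moved r as far as -0.32.

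**Figure D4:**
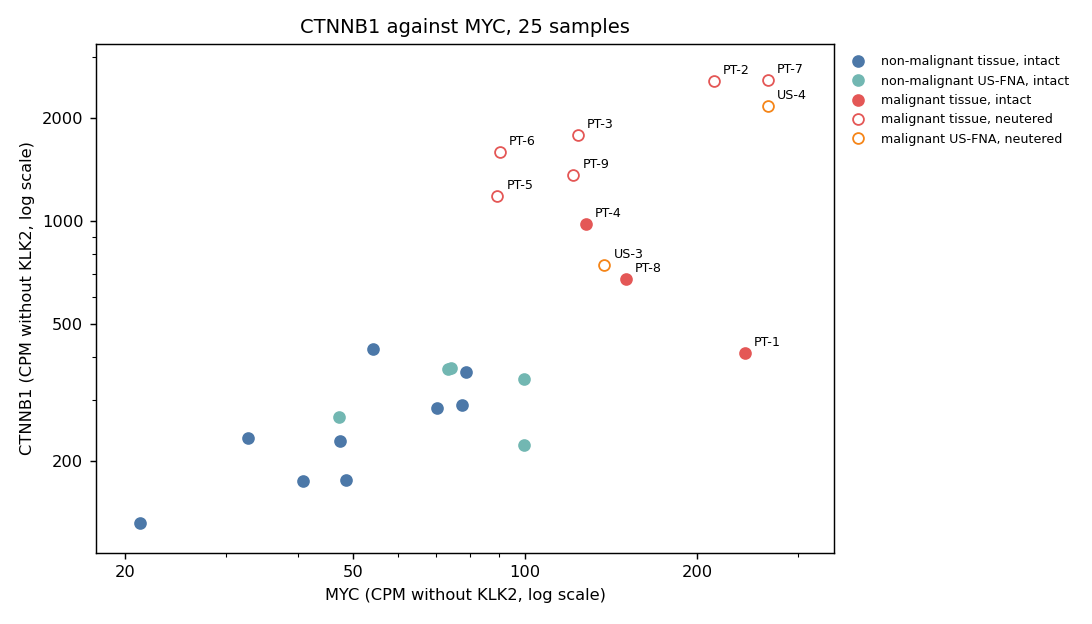
CTNNB1 against MYC in 25 samples, both as CPM without KLK2 on log axes, with malignant samples named, filled points for intact dogs and open points for neutered dogs. PT-1, at 242 CPM of MYC and 412 CPM of CTNNB1, lies far below the other tumours with high MYC.

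With both malignant aspirates added, r was 0.15 (n = 11, permutation test, p = 0.663) and rho 0.23 (p = 0.504, permutation), and r was 0.23 with PT-6 left out. Without the 2 samples farthest from the median of MYC, r was 0.26 in the 9 tissues and -0.32 in the 11 samples. In the 9 non-malignant tissues, r was 0.76 (exact permutation, p = 0.0167, adjusted 0.0903) and rho 0.78 (exact permutation, p = 0.0172, adjusted 0.0861), and r was 0.49 without PT-11 and PT-15. None of the 10 relations passed adjustment.

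MKI67 and PCNA, whose products mark cycling cells, were set beside both members in the 9 malignant tissues. MKI67 ranged from 17.1 CPM in PT-3 to 519 CPM in PT-1 and PCNA from 51.1 CPM in PT-5 to 184 CPM in PT-1, whereas the highest levels in any non-malignant sample were 5.26 and 35.8 CPM. For MYC, r was 0.45 with MKI67 (exact permutation, p = 0.220; rho 0.40, p = 0.291) and 0.63 with PCNA (exact permutation, p = 0.0710; rho 0.52, p = 0.162). The 3 tumours with the most MYC, PT-7, PT-1 and PT-2, were among the 4 with the most MKI67 and among the 4 with the most PCNA. The remaining tumour of both sets, PT-6, went the other way, with 169 CPM of MKI67 and 112 CPM of PCNA. Its MYC level, 90.4 CPM, was the lowest but for PT-5 at 89.4 CPM. Without the 2 tumours farthest from the median of the proliferation gene, r fell to 0.21 and 0.30.

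For CTNNB1, r was -0.14 with MKI67 (exact permutation, p = 0.718; rho -0.02, p = 0.982) and 0.09 with PCNA (exact permutation, p = 0.819; rho 0.17, p = 0.678). PT-1 combined the highest levels of both proliferation genes among the tumours with the lowest level of CTNNB1. Without PT-1, r with CTNNB1 was 0.52 for MKI67 (n = 8, exact permutation, p = 0.186) and 0.81 for PCNA (n = 8, exact permutation, p = 0.0170), values obtained by leaving out the sample that went against them. Without the 2 tumours farthest from the median of the proliferation gene, of which PT-1 was one in each case, r with CTNNB1 was 0.76 for MKI67 and 0.74 for PCNA. No relation with age was detectable for either member in the 9 non-malignant tissues, with r = -0.08 for MYC (exact permutation, p = 0.841) and r = 0.00 for CTNNB1 (exact permutation, p = 0.990).

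**Figure D5:**
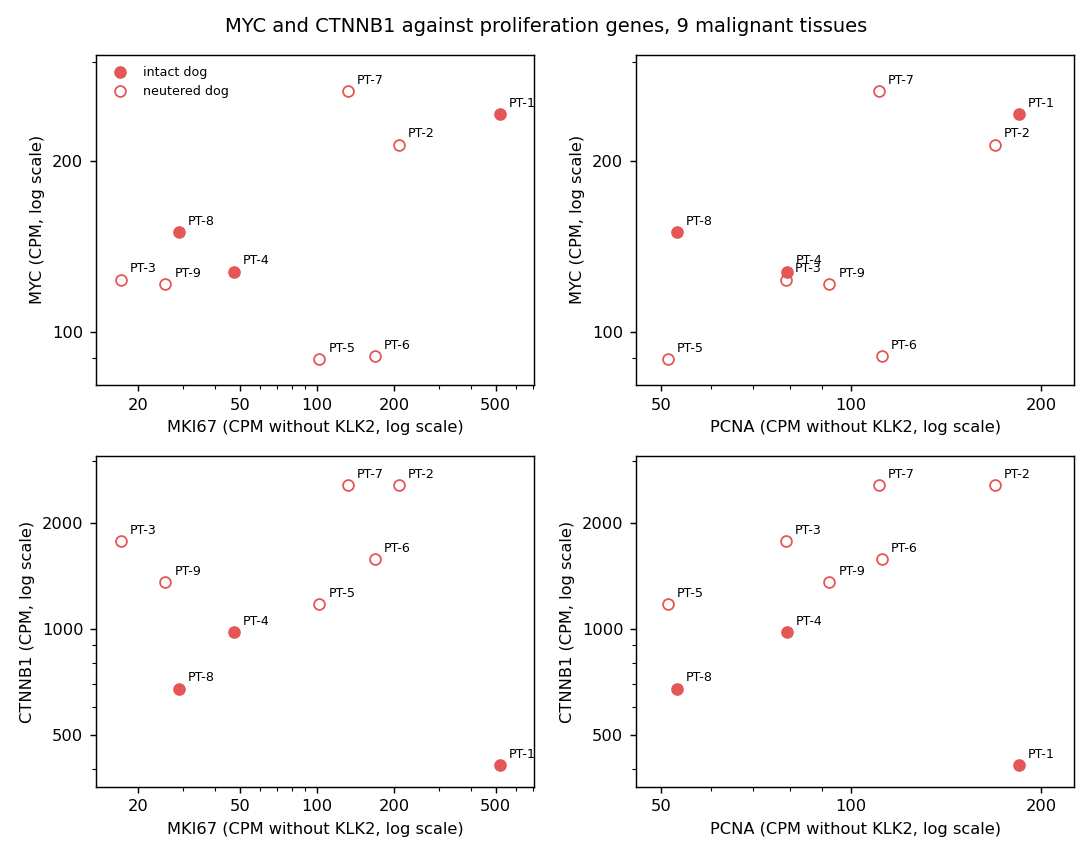
MYC (upper row) and CTNNB1 (lower row) against MKI67 (left) and PCNA (right) in the 9 malignant tissues, as CPM without KLK2 on log axes, with filled points for intact and open points for neutered dogs. PT-1, with 519 CPM of MKI67 and 184 CPM of PCNA, is high in MYC and lowest in CTNNB1.

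Over all 25 samples, r of MYC and CTNNB1 was 0.79, a description over 11 malignant and 14 non-malignant samples whose diagnosis separates both genes. Of 15126 other genes, 2.42% had a higher r with MYC than CTNNB1 had, and 4.48% a higher r with CTNNB1 than MYC had. The gene most like MYC in its pattern over the 25 samples was ENSCAFG00000020151 (r = 0.91, 42.2 to 296 CPM), and the gene most like CTNNB1 was ENSCAFG00000000555 (r = 0.95, 20.1 to 480 CPM). In the 9 malignant tissues alone, the genes most like them were ENSCAFG00000004121 for MYC (r = 0.94, 4.21 to 9.78 CPM) and ENSCAFG00000014782 for CTNNB1 (r = 0.95, 0 to 8.60 CPM), both at low levels. No gene names go with these IDs in the sources used here. In those tissues, 62.0% of genes had a higher r with MYC than CTNNB1 had.

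In the comparison of malignant with non-malignant tissue, in which 58.1% of genes were called in either direction, the other genes that the study pairs with IDs were read beside the members. KLK2 is not among them, since it was left out of the fits. All 5 genes outside the globins passed an FDR under 0.05. The study had named these 5 genes because they differed with diagnosis in these same samples. Their calls were thus given in advance and lend no separate support, and the same holds for the calls of both members. PMEPA1, which encodes a membrane protein that restrains androgen receptor and TGF-β signalling, had a log2 fold change of 4.22 in malignant over non-malignant tissue (edgeR, FDR = 6.01e-08), and MKI67 and PCNA had 5.78 (FDR = 3.81e-06) and 2.31 (FDR = 5.91e-07). KLK4, a kallikrein protease, and ACPP, the prostatic acid phosphatase, fell by 7.84 and 5.29 on the log2 scale (FDR = 6.30e-09 and 1.23e-06). The change of CTNNB1 was thus of the size of that of PCNA, and that of MYC was the smallest in absolute value among these 7 genes. Of the 5 globin genes, HBM had a log2 fold change of 2.88 (edgeR, FDR = 0.0123), while HBB, HBD, HBA2 and HBA1 had values of 0.10 to 0.41 with an FDR of 0.710 or more. HBM held at most 11 reads in a malignant tissue (PT-2) and at most 2 reads in a non-malignant tissue (PT-11). Its log2 fold change in tissue thus rests on few reads. Wnt pathway members and further MYC targets were not counted, because no table used here pairs their names with the IDs.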

How the data were processed

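The deposited values are counts, whole numbers of reads on each Ensembl gene in each of 25 samples, to which the authors applied no scaling. Per the labels and the methods, libraries (NEBNext Ultra kit) were sequenced on a NextSeq500, trimmed (Trimmomatic 0.32), mapped to CanFam3.1 with TopHat2 and counted with HTSeq at default settings, which count by strand. Reads on no annotated gene made up 58.8% to 70.3% of the reads listed and were left out. Whether the kit marked the strand is not given in the sources used here, so these reads need not lie outside annotated genes, and reads of an overlapping antisense gene cannot be told apart. No 2 files were identical. Groups came from the labels.

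The members and all lists were chosen with earlier results of these data known. The 0 matches of the IDs in the reference table used (43286 genes) left 13 genes that the study pairs with IDs and that are used here, and no genome coordinates or sequences are reported here. Named genes were the members, those 13 genes, and the 2 genes per member with the highest Pearson's r of log2(CPM + 1) over all samples and over malignant tissue, of which the highest is printed.

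KLK2 was left out before library totals and TMM factors. Low genes were removed by filterByExpr, using the 4 groups, at a minimum count of 10 and a minimum total of 15, and 15127 were kept. Each comparison was fitted alone with the quasi-likelihood test of edgeR 4.0.16 (R 4.3.3) on the deposited counts, with Benjamini-Hochberg adjustment over all genes (FDR under 0.05; the study's 0.00001 beside it). The SE of a log2 fold change was its absolute value over the root of F. Count ratios used a pseudocount of 0.5. Permutation tests of group differences were exact, and the smaller tail was doubled for a two-sided p, which sets the smallest p-values given. Those of relations compared absolute correlations, exactly for fewer than 10 samples and with 100000 permutations otherwise (seed 1). They were run in SciPy 1.17.1 and NumPy 2.4.6 under Python 3.11.15, with figures from matplotlib 3.10.9. Counting errors cover counting only. Alternatives were DESeq2 1.42.0, other scalings, no filter, the 20 most abundant genes left out, 1 fit of all samples, other pseudocounts (0, 1, 0.1 and 10) and each sample left out. Raw reads were not analysed here.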

Additional observations from a re-analysis of the deposited data

Results flagged for a closer look

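CTNNB1 in malignant tissue was marked because its mean log2(CPM + 1) was 1.44 higher in the 6 neutered than in the 3 intact dogs, higher in 6 of 6 neutered dogs than in every intact dog (exact permutation test, p = 0.0238, the smallest possible, adjusted 0.0544). The edgeR fit across all genes did not call it (FDR = 0.913). The log2 ratio of CTNNB1 to MYC counts was marked for the same contrast, being 1.71 higher in neutered dogs, again in 6 of 6 (exact permutation test, p = 0.0238, adjusted 0.0952). No sample stood outside its group by Dixon's 95% limit in the 12 sets of 5 to 9 values examined for MYC, CTNNB1 and their ratio.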

How the results depend on the processing

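Across the settings in which no sample was left out, 79 of 87 values of MYC and 78 of 87 of CTNNB1 kept their direction and their side of the threshold, as did all 16 of the ratio and 11 of 13 of the relations. At an FDR under 0.00001 in place of 0.05, 8 calls were lost: MYC in malignant tissue (log2 fold change 1.53), in malignant US-FNA against tissue (2.14) and against US-FNA (1.55), and in intact (1.64) and neutered dogs (1.47), and CTNNB1 in malignant US-FNA against tissue (2.67), against US-FNA (2.40) and in intact dogs (1.48). With DESeq2, the tool the study paired with this threshold, 6 of these 8 calls passed it, and MYC in malignant against non-malignant US-FNA (FDR = 0.00187) and CTNNB1 in intact dogs (FDR = 0.000277) did not. Exact permutation tests, which cannot reach 0.05 with 2 against 5 samples, lost the calls of malignant against non-malignant US-FNA (difference of mean log2(CPM + 1) 1.32 for MYC and 2.03 for CTNNB1). By unadjusted p, these tests put CTNNB1 past 0.05 in neutered against intact dogs (1.44, and 1.32 with the malignant aspirates added, also without PT-6, both chosen after seeing the data). Adjusted over the 16 tests, that one missed 0.05 (0.0544), as did both genes in malignant US-FNA against non-malignant tissue (0.0646).

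Without TMM factors, CTNNB1 in malignant US-FNA against malignant tissue turned to -0.0054, or -0.0053 with KLK2 also kept (chosen after seeing the data), and the MYC interaction to -0.24, or -0.12 with KLK2 kept. The r of MYC and CTNNB1 in malignant tissue turned to -0.0023 with TMM effective library sizes and was 0.91 in neutered dogs alone (chosen after seeing the data).

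Leaving out each sample gave 1.02 to 1.94 for MYC in malignant against non-malignant US-FNA, with the call lost only without US-4, where US-3 is assumed to vary like the other group. It gave -0.64 to 0.73 for CTNNB1 in malignant US-FNA against tissue, and the interaction was -0.43 to 0.40 for MYC and -0.91 to 0.50 for CTNNB1. The log2 ratio difference ranged from 0.67 to 1.09 in malignant against non-malignant tissue (highest p = 0.0916, exact permutation). It ranged from 1.12 to 2.20 between neutered and intact dogs, where 2 intact dogs cannot give a p under 0.0714, and from -0.83 to 0.25 in intact dogs. The r values ranged from -0.32 to 0.51 for MYC with CTNNB1, from 0.51 to 0.78 for PCNA with MYC, from -0.33 to 0.52 for MKI67 with CTNNB1, from -0.16 to 0.81 for PCNA with CTNNB1, and from -0.34 to 0.092 and -0.21 to 0.15 for age with MYC and CTNNB1.

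The number of genes called moved by more than 1.5 times from 400 in malignant US-FNA against malignant tissue (191 without TMM, 197 with KLK2 also kept, 1180 with DESeq2, 1189 in 1 fit of all samples, 158 to 264 without PT-2, PT-4, PT-5, PT-7 or PT-9, 852 without US-4, 11 without US-3), from 2754 in non-malignant US-FNA against tissue (1669 in 1 fit, 1793 with KLK2 kept and no TMM), from 225 in the interaction (90 without TMM, 56 with KLK2 also kept, 127 without the filter, 67 to 145 without PT-2, PT-10, PT-17, US-3, US-7, US-15, US-32 or US-40, and 597 without US-4) and from 6323 in malignant US-FNA against tissue (3912 without US-3). The share of calls that were higher moved from between 54.3% and 60.9% to between 73.2% and 86.1% with KLK2 kept and no TMM in the 5 comparisons of malignant with non-malignant samples, from 92.5% to 67.3% with DESeq2 and 77.8% in 1 fit in malignant US-FNA against malignant tissue, and from 81.8% to 62.2% without TMM in the interaction (67.9% with KLK2 kept). Comparisons with 2 malignant aspirates or 3 intact dogs rest on few samples.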
